A study of Mus musculus with 16 samples.

Results

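The transcripts described here encode 4 mouse vesicular transporters of the SLC17 family: Slc17a6 (VGLUT2), Slc17a7 (VGLUT1), Slc17a8 (VGLUT3) and Slc17a9 (VNUT). They are the rows of those 4 symbols in 2 tables of read counts, which hold 26371 and 55304 gene symbols, and all 4 passed the filter on low counts in every fit. Slc17a9 did so at basal state through the shControl libraries alone, and Slc17a8 in silenced cultures through the shNup153-2 libraries alone. Between states with shNup153-2, the silenced group reached the filter for Slc17a9 and the basal group did not, while the controls in that joint fit did. The family was chosen from results of these data: Slc17a9 already stood among the named falls with both Nup153 hairpins at basal state. Differences from shControl at basal state are therefore given as estimates with no test, and so is what is derived from them. States are compared by a test in control cultures, but the basal libraries of that test also served in the choice.

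RNA came from primary cortical neurons of C57/BL6 mouse embryos at embryonic day 17.5 to 19.5, with the cortices of 1 litter pooled into each biological replicate. All groups carried an AAV-delivered short hairpin RNA from day 8 in vitro (DIV) to collection at DIV 13, so the controls were infected too. At basal state 4 libraries with the control hairpin shControl were analysed, 2 with shNup153-1 and 2 with shNup153-2. The labels list 3 libraries for each of these hairpins, but 2 columns share 1 name and could not be assigned, so neither was used. Both hairpins target Nup153, whose product is a nuclear basket component of the nuclear pore. Silenced cultures, 3 libraries with shControl and 3 with shNup153-2, also received tetrodotoxin (1 to 2 µM, 24 hours), which blocks sodium channels, and D-AP5 (100 µM, 6 hours), which blocks NMDA receptors. shNup153-1 was not analysed under silencing. Cultures were processed only where the knockdown sufficed, per the labels, and the cell types that the virus infects are not named there.

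Vesicular glutamate transporters load the main excitatory transmitter into synaptic vesicles, driven by the proton gradient that the vesicular ATPase builds. In the adult forebrain VGLUT1 marks most cortical and hippocampal excitatory neurons, VGLUT2 marks thalamic and other subcortical ones and is prominent in the young cortex before VGLUT1 comes to dominate, and VGLUT3 occurs in small sets of neurons that release another transmitter as well. VNUT loads ATP and other nucleotides into vesicles, for signalling through purinergic receptors.

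Since reads are assigned by sequence, the coding sequences were compared first. Slc17a6 and Slc17a7 were identical at 72.3% of aligned coding bases, Slc17a6 and Slc17a8 at 71.7%, and Slc17a9 matched the other members at 60.3% to 61.7%. No stretch of 31 bases was shared by any pair. The in-frame stretch of 60 coding bases that differs least between the VGLUT members shows how far apart they are for a sequencing read. Capitals mark bases that differ from Slc17a7: 12 in Slc17a6, 11 in Slc17a8 and 33 in Slc17a9 (annotation GENCODE M21, mm10, 5′ to 3′).
Slc17a7: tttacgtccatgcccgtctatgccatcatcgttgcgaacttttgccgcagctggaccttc
Slc17a6: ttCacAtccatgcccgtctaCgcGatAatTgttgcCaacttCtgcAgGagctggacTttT
Slc17a8: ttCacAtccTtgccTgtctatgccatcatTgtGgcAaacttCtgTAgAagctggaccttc
Slc17a9: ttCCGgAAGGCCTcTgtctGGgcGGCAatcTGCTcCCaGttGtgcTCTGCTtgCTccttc

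On mm10, Slc17a6 lies on chromosome 7 from 51622006 to 51671119 and Slc17a7 on the same chromosome from 45163949 to 45176142, both on the plus strand. Slc17a8 lies on chromosome 10 from 89574020 to 89621253 on the minus strand, and Slc17a9 on chromosome 2 from 180725263 to 180742280 on the plus strand. None of their exons overlaps an exon of another annotated gene on either strand.

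Slc17a6 and Slc17a7 differed in opposite directions with shNup153-2, so the bases before their first starts are shown, from the RefSeq promoter table (build GRCm38.p6). They are the 250 bases at chr7:45163671-45163920 and chr7:51621580-51621829, both on the plus strand, 5′ to 3′. Capitals mark matches to the motifs searched on both strands: GGGCGG (the GC box), CANNTG (the E-box), CCAAT (the CCAAT box), TATAAA (the TATA box), TGACG (the CRE core) and TGACGTCA (the full CRE, which contains the core).
Slc17a7: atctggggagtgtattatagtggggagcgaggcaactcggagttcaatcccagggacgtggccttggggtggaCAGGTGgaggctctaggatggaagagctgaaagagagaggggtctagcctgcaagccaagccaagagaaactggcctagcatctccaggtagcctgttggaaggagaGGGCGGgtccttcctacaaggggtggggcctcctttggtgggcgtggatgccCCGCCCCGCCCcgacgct
Slc17a6: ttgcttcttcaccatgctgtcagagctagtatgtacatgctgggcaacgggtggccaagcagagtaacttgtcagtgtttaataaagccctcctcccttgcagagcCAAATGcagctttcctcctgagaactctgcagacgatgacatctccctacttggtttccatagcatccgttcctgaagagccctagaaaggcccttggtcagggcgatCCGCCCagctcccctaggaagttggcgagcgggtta

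The Slc17a7 window held 3 GC boxes, a pair of which share a base, and 1 E-box, and was 61.2% G and C. The Slc17a6 window held 1 of each and was 53.2% G and C. Among 32851 promoter windows of the same length, 32.7% held a GC box and 66.2% an E-box, and the median G and C content was 52.4%. Neither window held a CCAAT box, a TATA box or a CRE core, which occurred in 33.9%, 12.4% and 17.8% of windows. A second Slc17a6 window, at chr7:51624387-51624636, did hold 1 CRE core, with 2 E-boxes. The 2 windows of Slc17a8 held 2 and 1 E-boxes and none of the other motifs, and 3 of the 4 members had a window.

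Totals ran from 26863535 to 56299817 counts per library. Nup153 itself averaged 71.0 CPM (read counts scaled to the library total) in basal shControl, 22.6 with shNup153-1 and 12.4 with shNup153-2, and under silencing 59.2 with shControl and 11.1 with shNup153-2. In the lower part of the basal table the shNup153-1 columns do not line up with the symbols, and there their correlation with shControl across genes was 0.087 against 0.975 above it, and all 4 members lie above that point. In the edgeR quasi-likelihood test with Benjamini-Hochberg (BH) adjustment at 0.05, 3.45% of 18965 genes were called between silenced shNup153-2 and shControl (1.61% higher, 1.83% lower). The calls rest on single cultures: 4 genes were called without silenced shNup153-2 replicate 1, 12 without shControl replicate 1, and 84, 99 and 372 without shControl replicate 3, shNup153-2 replicate 3 or shNup153-2 replicate 2. Libraries of the same replicate number varied together in silenced cultures, and with that number as a block 21.9% were called (11.7% higher, 10.3% lower). All cultures expressed neuronal and cortical excitatory markers, with all 16 glutamatergic cortical markers detected in every group. Microglial markers were near 0, at 0.177 to 1.57 CPM summed over the 3 markers compared.

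Slc17a6, the VGLUT2 gene, was lower with shNup153-2 than with shControl in silenced cultures. It stood at 57.4, 49.6 and 45.1 CPM in silenced shControl and at 16.1, 19.96 and 20.5 in silenced shNup153-2. All knockdown libraries lay below all controls, and the fold was 0.378, or -1.40 (SE 0.14) on the log2 scale, with an adjusted p of 0.00915 in edgeR. The call was lost without silenced shNup153-2 replicate 1 (adjusted p = 0.0733 in edgeR) or silenced shControl replicate 1 (0.0643), at log2 fold changes of -1.31 and -1.325. Fewer cells that carry a transcript and less of it per cell cannot be told apart in these bulk libraries.

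At basal state, from which the family was chosen, Slc17a6 stood at 103, 73.5, 76.9 and 94.5 CPM with shControl. The libraries with shNup153-1 held 40.8 and 52.1 CPM and those with shNup153-2 held 22.3 and 20.7. Neither hairpin's libraries overlapped the controls, and the estimates were -0.93 (SE 0.21) and -2.02 (SE 0.22) on the log2 scale. The hairpins themselves stood apart, with shNup153-2 lower than shNup153-1 by an estimated log2 difference of -1.10 (SE 0.24). The shNup153-2 estimate under silencing was smaller in size than at basal state, by 0.59 (SE 0.24, not tested).

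Silencing itself went with less Slc17a6 in control cultures. All 3 silenced shControl libraries lay below all 4 basal ones, a fold of 0.566 or -0.82 (SE 0.16) on the log2 scale with an adjusted p of 0.00733 in edgeR, and the call held without any single library of these groups (adjusted p up to 0.0443). In that comparison 12.4% of 20926 genes were called (6.09% higher, 6.27% lower). Silenced and basal libraries were counted in separate tables, so the state and the table cannot be told apart, and these basal controls also served in the comparisons from which the family was chosen. With shNup153-2 the silenced libraries were again below the basal ones, by a log2 estimate of -0.23 (SE 0.19).

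Markers of other neurons moved with part of this. Over 12 markers of subcortical and Cajal-Retzius neurons, cell types in which VGLUT2 is common, the summed level was 262 to 481 CPM in basal shControl and 105 to 143 in silenced shControl. Of the 11 tested between these states, 2 fell and none rose in the edgeR test, where 6.27% of all genes were called lower. They were Reln, a secreted glycoprotein gene (-2.27, BH-adjusted p = 0.00315), and Zic1, a zinc finger factor gene (-2.41). Reln weighs heavily in these sums, with 3536 to 16238 counts in basal and 989 to 1638 in silenced shControl. In the same comparison 9 of 15 GABAergic markers fell too. The part of either marker list in the state difference of Slc17a6 was not tested. At basal state the sums with a Nup153 hairpin, 530 and 367 CPM with shNup153-2 and 350 and 349 with shNup153-1, did not lie below the control range, but they are led by Reln and Rora. None of 10 was called by edgeR with either hairpin (with shNup153-2, 1 at an unadjusted p under 0.05 and 1 by DESeq2, and none of either with shNup153-1). Their median log2 fold change was 0.60 with shNup153-2 and -0.07 with shNup153-1, against -0.03 and -0.02 over all genes, so the list did not fall as a whole. Calb2, the calretinin gene, named after its values were seen, went the way of Slc17a6, at 83.2 ± 54.0 CPM in basal shControl (SD, n = 4), 17.0 ± 1.07 in shNup153-2 libraries and 32.2 ± 11.9 in those of shNup153-1 (SD, n = 2 each). Its log2 estimates were -2.30 (SE 0.67, adjusted p = 0.0686 in edgeR) and -1.39 (SE 0.62, 0.177), and its part in the basal level of Slc17a6 was not tested. Under silencing with shNup153-2 the 12 markers summed to 103 to 145 CPM, and none of 6 was called against silenced shControl in the edgeR test (none at an unadjusted p under 0.05, and none by DESeq2).

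**Figure D1:**
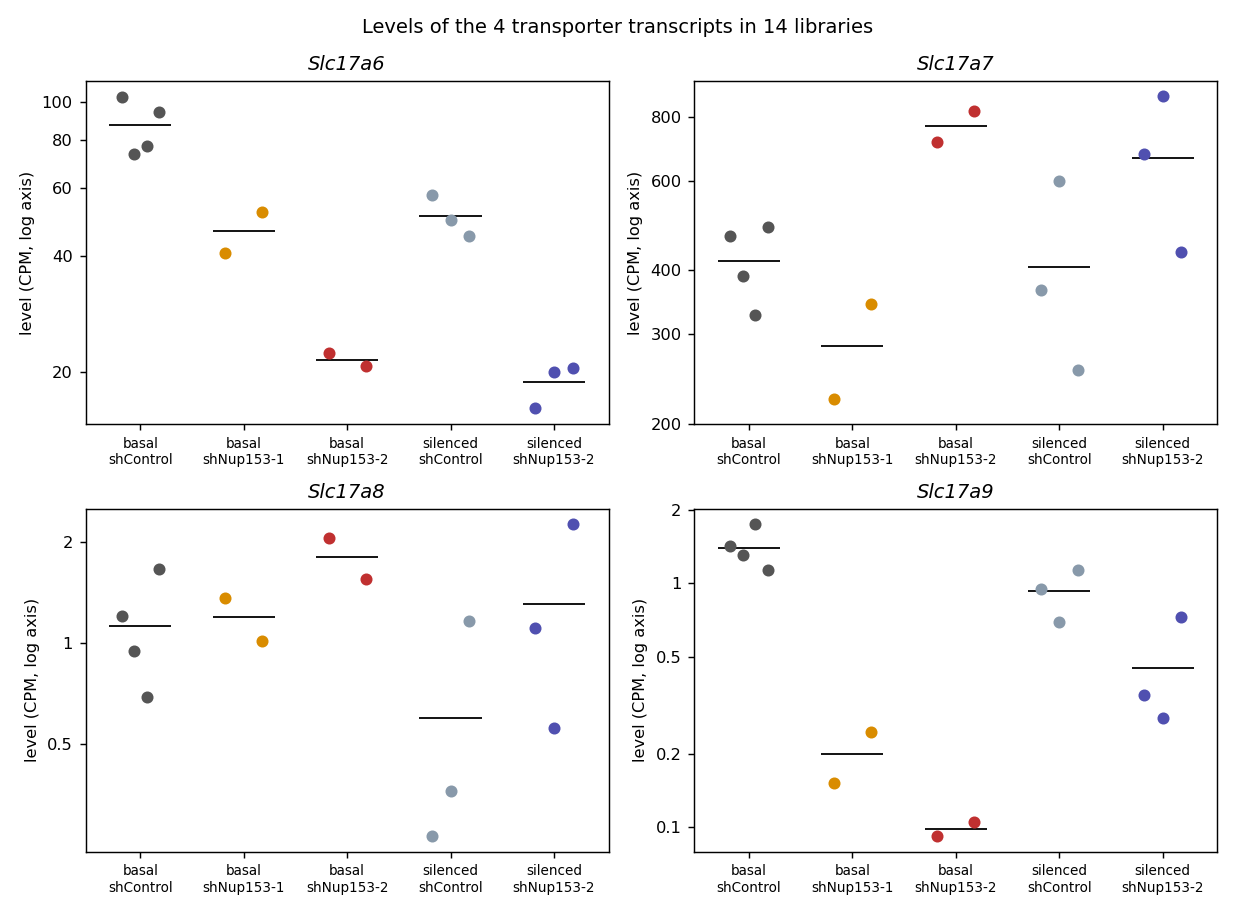
Level of each transcript in CPM (log axis) in the 14 libraries, by group; points are libraries and bars group means. Slc17a6 falls from 73.5 to 103 in basal shControl to 16.1 to 20.5 in silenced shNup153-2, while Slc17a9 is lowest at basal state with shNup153-2 (0.0921 and 0.105).

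Slc17a7, the VGLUT1 gene and the most abundant of the family, was higher with shNup153-2 within each replicate number of the silenced cultures. Silenced shControl libraries 1 to 3 held 365, 599 and 255 CPM and silenced shNup153-2 libraries 1 to 3 held 677, 878 and 435. The groups overlapped, but the ratios within equal replicate numbers were 1.85, 1.47 and 1.71. Without regard to the numbers the difference did not pass (0.74, SE 0.36, on the log2 scale, adjusted p = 0.323 in edgeR). With the replicate number as a block Slc17a7 was called higher (0.76, SE 0.08, edgeR BH-adjusted p = 0.00167). That call rests on a pairing that no label gives and that was taken from correlations between these same libraries. Slc17a6 was called in either fit.

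The number that set Slc17a7 apart also set astrocyte markers apart. Over 10 of them, which include Gfap and Aqp4, the summed level was 376, 1060 and 165 CPM in silenced shControl libraries 1 to 3 and 292, 1096 and 134 in silenced shNup153-2. In both groups these sums were highest in replicate 2 and lowest in replicate 3, and they were close between the hairpins within a number. The 16 glutamatergic cortical markers ran in the same order, at 3387, 3665 and 2572 CPM in silenced shControl and 3820, 4821 and 2657 in silenced shNup153-2. So did 7 markers of VGLUT3 neurons, while 10 pan-neuronal markers did not (8212, 5929 and 7937 CPM in silenced shControl). No astrocyte marker of 9 was called in silenced cultures without the block (none at an unadjusted p under 0.05 in edgeR, and none by DESeq2). With it, where 21.9% of all genes were called, Aldh1l1 (0.27) and S100b (0.88) rose and Acsbg1 fell (-0.34). The part of these markers in the level of Slc17a7 was not tested.

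**Figure D2:**
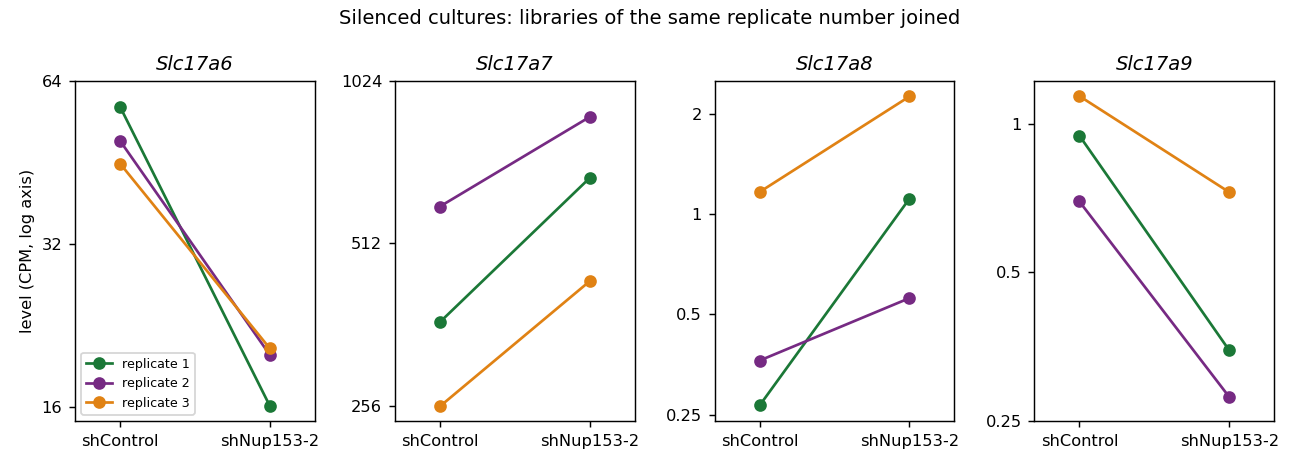
Levels in silenced cultures (CPM, log axis), with lines joining shControl and shNup153-2 libraries of the same replicate number. Slc17a7 and Slc17a8 go up and Slc17a6 and Slc17a9 go down along all 3 lines, while the starting levels of Slc17a7 differ from 255 to 599.

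At basal state the hairpins parted over Slc17a7. The shControl libraries held 468, 390, 328 and 486 CPM, those with shNup153-2 716 and 823, and those with shNup153-1 224 and 344. With shNup153-2 both libraries lay above all controls (estimate 0.87, SE 0.23), while those with shNup153-1 overlapped the controls from below (-0.58, SE 0.26). The difference between the hairpins was estimated at 1.45 (SE 0.29) on the log2 scale. Between states Slc17a7 did not pass in control cultures (-0.08, SE 0.29, edgeR BH-adjusted p = 0.896) and its libraries overlapped. With shNup153-2 the state estimate was -0.25 (SE 0.35).

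The balance of VGLUT1 and VGLUT2 messages was read from levels per kilobase of exon, which make genes comparable. In basal shControl the ratio of Slc17a7 to Slc17a6 was 4.53, 5.32, 4.27 and 5.15, and with shNup153-1 it was 5.49 and 6.62. With shNup153-2 it was 32.1 and 39.9. Silenced shControl libraries had ratios of 6.38, 12.1 and 5.67, and silenced shNup153-2 libraries 42.2, 44.1 and 21.3. All 5 shNup153-2 libraries thus lay above all 9 others. This ratio was set up after the levels were seen and is a description. Slc17a6 made up 17.3% ± 1.5 (SD, n = 4) of the summed VGLUT message per kilobase in basal shControl, against 2.73% ± 0.403 (SD, n = 2) in basal shNup153-2 cultures. Silenced controls had a share of 12.0% ± 3.87 (SD, n = 3), and silenced shNup153-2 cultures one of 3.00% ± 1.27 (SD, n = 3).

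**Figure D3:**
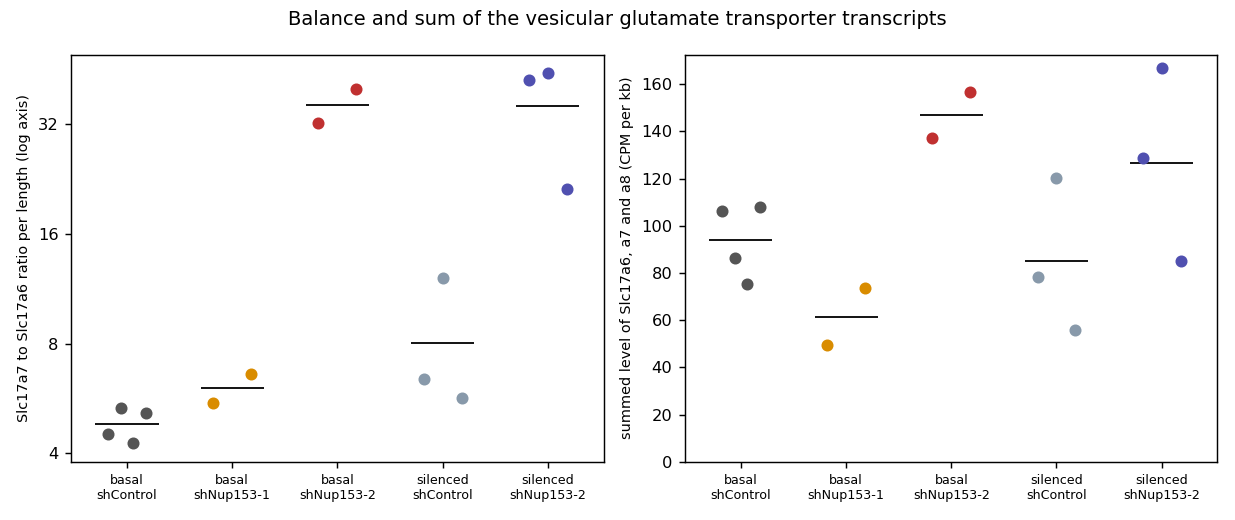
Left, ratio of Slc17a7 to Slc17a6 per kilobase of exon (log axis) in each library; right, summed level of Slc17a6, Slc17a7 and Slc17a8 (CPM per kilobase, axis from 0), with bars for group means. The 5 libraries with shNup153-2 have ratios of 21.3 to 44.1 and the 9 others 4.27 to 12.1.

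Summed over Slc17a6, Slc17a7 and Slc17a8, the VGLUT message was 93.8 ± 15.9 CPM per kilobase in basal shControl (SD, n = 4). The basal hairpin groups had 61.5 ± 17.3 (shNup153-1) and 147 ± 13.7 (shNup153-2, SD, n = 2 each), and the silenced groups 84.9 ± 32.7 (shControl) and 127 ± 40.9 (shNup153-2, SD, n = 3 each). The basal shNup153-2 sums stood above the basal control ones, and the silenced sums overlapped.

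Slc17a8, the VGLUT3 gene, was scarce, with 9 to 90 counts in a library and group means of 0.193% to 0.440% of the summed VGLUT message. Silenced shControl libraries 1 to 3 held 0.266, 0.363 and 1.17 CPM and silenced shNup153-2 libraries 1 to 3 held 1.11, 0.559 and 2.26. The groups overlapped, with an edgeR log2 estimate of 1.14 (SE 0.69, adjusted p = 0.421), and within equal numbers the ratios were 4.18, 1.54 and 1.94. With the replicate number as a block the estimate was 1.199 (SE 0.34, edgeR BH-adjusted p = 0.042). That call is not counted as a rise, because Slc17a8 reached the filter through the shNup153-2 libraries, with 2 of the 3 controls past it. In control cultures it did not pass between silenced and basal state (-0.94, SE 0.56, edgeR BH-adjusted p = 0.308). Basal libraries held 1.202, 0.944, 0.692 and 1.66 CPM in the control group, 1.37 and 1.02 where shNup153-1 was used, and 2.05 and 1.55 where it was shNup153-2. They overlapped for both hairpins, with estimates of 0.05 (SE 0.41) and 0.67 (SE 0.40). Of 7 genes that mark VGLUT3 neurons of other kinds, 3 were tested in silenced cultures and none was called in the edgeR test (none at an unadjusted p under 0.05, and none by DESeq2), and with the block the peptide gene Cck rose (0.27, BH-adjusted p = 0.0307).

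Slc17a9, the VNUT gene, was the member whose basal fall had been seen before. Basal shControl libraries held 79, 36, 58 and 36 counts (1.42, 1.31, 1.75 and 1.13 CPM), those with shNup153-1 4 and 8 (0.152 and 0.247 CPM) and those with shNup153-2 4 and 4 (0.0921 and 0.105 CPM). No knockdown library reached the controls, and the estimates were -2.80 (SE 0.44) and -3.79 (SE 0.46) on the log2 scale. Pooled counts put the level at 0.145 of control with shNup153-1 (12 counts, 95% exact interval 0.0737 to 0.259) and at 0.0697 with shNup153-2 (8 counts, 0.0297 to 0.14). These intervals cover counting error only. The hairpins differed by an estimated -0.997 (SE 0.56).

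In silenced cultures, which took no part in that choice, Slc17a9 did not pass the test. Silenced shControl libraries 1 to 3 held 32, 23 and 42 counts (0.946, 0.696 and 1.14 CPM) and silenced shNup153-2 libraries 15, 8 and 29 (0.348, 0.28 and 0.727 CPM). The third knockdown library exceeded the second control one. The log2 fold change was -1.001 (SE 0.42, unadjusted p = 0.0495, edgeR BH-adjusted p = 0.252), and pooled counts gave 0.498 of control (95% exact interval 0.349 to 0.705, counting error only). Within equal numbers the ratios were 0.367, 0.402 and 0.639, and the blocked fit, at a BH-adjusted p of 0.0527, did not pass either.

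The shNup153-2 estimate for Slc17a9 was thus smaller in size under silencing than at basal state, by 2.76 on the log2 scale (SE 0.62). Since the basal side had chosen the gene, this was not tested. All 3 silenced shNup153-2 libraries lay above both basal ones (estimate 2.13, SE 0.52). In control cultures the silenced level was not called different (-0.63, SE 0.34, edgeR BH-adjusted p = 0.25). The basal controls of that comparison also served in the choice of Slc17a9, and state and table cannot be told apart there. Within shNup153-2, 21.7% of 20926 genes were called between states (9.39% higher, 12.3% lower).

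**Figure D4:**
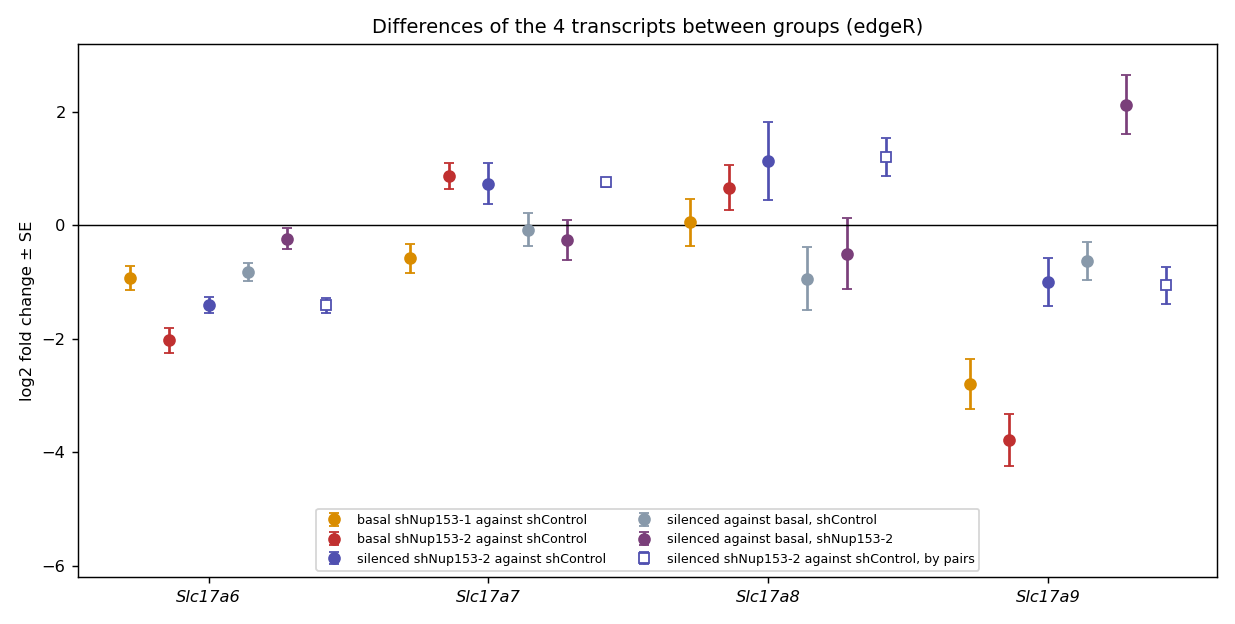
Log2 fold changes from edgeR, with bars of 1 SE, for each transcript in 5 comparisons; open squares are the silenced comparison fitted with the replicate number as a block. Slc17a6 lies below 0 throughout, and Slc17a9 changes from -3.79 to -1.001 between the basal and the silenced comparison of shNup153-2.

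Ordered by group means, Slc17a6 was highest in basal shControl, then in silenced shControl and basal shNup153-1, whose libraries overlapped, then in basal shNup153-2 and last in silenced shNup153-2. For Slc17a7 the order was basal shNup153-2, silenced shNup153-2, basal shControl, silenced shControl and basal shNup153-1, with each neighbouring pair overlapping. Slc17a8 ran in the order basal shNup153-2, silenced shNup153-2, basal shNup153-1, basal shControl and silenced shControl, again with overlap between all neighbours. Slc17a9 was highest in basal shControl, then silenced shControl and silenced shNup153-2, each overlapping the next, and lowest in basal shNup153-1 and then basal shNup153-2, which stood apart. Per kilobase, basal shControl held 77.5 CPM of Slc17a7, 16.1 of Slc17a6, 0.437 of Slc17a9 and 0.238 of Slc17a8. Slc17a7 and Slc17a6 kept the first and second place in every group, and with shNup153-2 at basal state Slc17a8 (0.381) stood above Slc17a9 (0.0308).

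Other vesicular transporters were considered next. Slc17a5, the lysosomal sialic acid exporter sialin, was the one other SLC17 gene with enough counts, of 5 listed, and was not called in any comparison. Of 5 carriers for other transmitters, 2 were tested in silenced cultures and none was called by edgeR (1 at an unadjusted p under 0.05, none by DESeq2): Slc18b1, the vesicular polyamine transporter, and Slc32a1, the vesicular GABA transporter. With the block Slc18b1 rose (0.49, BH-adjusted p = 0.0303). At basal state 9.55% of 19682 genes were called with shNup153-2 (5.91% higher, 3.64% lower), and of 4 of these carriers Slc18b1 (1.07) and the monoamine carrier gene Slc18a2 (2.45) rose. With shNup153-1, where 13.6% of 14529 genes were called (6.52% higher, 7.05% lower), Slc32a1 rose (1.72) and the other 2 tested were not called. Between states in control cultures, where 6.27% of all genes were called lower, Slc18b1 fell (-0.86), of 5 tested. Slc18a3, the vesicular acetylcholine transporter, with 26 to 57 counts in basal and 2 to 5 in silenced shControl, was called lower as well. So was Slc18a2, with 14 to 48 and 3 to 12. For both, the basal shControl group reached the filter and the silenced shControl group did not. Without a filter their edgeR adjusted p-values were 0.000964 and 0.0274.

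Genes of the vesicular proton pump, which powers all 4 transporters, were read in the same way. Of 24 listed, 21 were tested in silenced cultures, where 3.45% of all genes were called. None of the 21 was called by edgeR (3 at an unadjusted p under 0.05, 1 by DESeq2). The median log2 fold change was 0.01, as over all genes tested. With the block, where 21.9% of all genes were called, the isoform gene Atp6v1c2 rose (0.81) and Atp6v0d1 fell (-0.30). Atp6v1b1, with 8 to 16 counts in silenced shControl and 24 to 32 in silenced shNup153-2, was called higher with the block but reached the filter through the latter alone. With neither filter nor block its edgeR adjusted p was 0.295. With basal shNup153-2, where 9.55% of all genes were called, none of 19 was (5 at an unadjusted p under 0.05, 2 by DESeq2). Their median was -0.12 against -0.03 over all genes. With shNup153-1 the catalytic subunit gene Atp6v1a (1.16) and Atp6v0a1 (0.95) rose, of 21 tested with a median of 0.42 against -0.02 over all genes. Over all genes 6.52% were called higher there. Between states in control cultures, where 6.09% of all genes were called higher, Atp6v0a1 rose (0.57), of 21 tested.

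All 17 genes for glutamate synthesis and uptake were tested in silenced cultures, where 1.61% of all genes were called higher and 1.83% lower. Of the 17, 1 was called higher and none fell. This was Slc38a5, a glutamine transporter gene, which held 5, 2 and 2 counts in silenced shControl and 64, 12 and 38 in silenced shNup153-2 (3.44, SE 0.63, adjusted p = 0.0386 in edgeR). It reached the filter through the shNup153-2 libraries alone, where a gene had to be higher to be tested, and without a filter its adjusted p was 0.00803. With the block Slc38a5 was called again, the glial glutamate transporter gene Slc1a2 rose (0.40), and 2 fell, the neuronal transporter gene Slc1a6 (-0.61) and the cystine-glutamate exchanger gene Slc7a11 (-1.30). That fit called 21.9% of all genes (11.7% higher, 10.3% lower). With basal shNup153-2, where 5.91% of all genes were called higher, the glutamine transporter gene Slc38a1 rose, of 16 tested (1.39, edgeR BH-adjusted p = 0.032). With shNup153-1 the neuronal glutamate transporter gene Slc1a1 (-1.35) and the glutamate dehydrogenase gene Glud1 (-1.09) fell, of 16 tested. Over all genes 7.05% were called lower there. Between states in control cultures none of 16 was called in edgeR (2 at an unadjusted p under 0.05, 1 by DESeq2).

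On the nucleotide side, 9 of 19 purinergic receptor genes had enough counts in silenced cultures, and none was called by edgeR (3 at an unadjusted p under 0.05, 1 by DESeq2). With the block, where 21.9% of all genes were called, the adenosine receptor genes Adora1 (0.46) and Adora2a (0.39) rose and the ATP-gated channel gene P2rx3 fell (-0.82). P2rx5, another such channel gene, with 10 to 40 counts in silenced shControl and 80 to 159 in silenced shNup153-2, was called higher with the block but reached the filter through the latter alone. Without the block its edgeR adjusted p was 0.0834 with the filter and 0.0333 without it. With basal shNup153-2, where 5.91% of all genes were called higher, 1 of 13 was called. This was P2ry12, a microglial receptor gene, with 0 to 7 counts in shControl and 21 and 24 in shNup153-2 libraries (adjusted p = 0.0487 in edgeR). It reached the filter through the latter alone, and without a filter the call was lost (adjusted p = 0.0566). With shNup153-1 none of 13 was called by edgeR (4 at an unadjusted p under 0.05, 1 by DESeq2). Between states in control cultures, where 6.27% of all genes were called lower, 2 of 13 were. These were P2ry2 (6 to 139 counts in basal and 0 to 4 in silenced shControl) and P2ry6 (5 to 100 and 0), receptors for uridine nucleotides among others. Both reached the filter through the basal libraries alone. Without a filter their edgeR adjusted p-values were 0.0185 and 0.0167.

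Nucleotide release channels, enzymes that break down extracellular nucleotides and nucleoside transporters made up a list of 25 genes, and 23 were tested in silenced cultures. Panx2, a pannexin channel gene, rose (1.70, SE 0.14, edgeR BH-adjusted p = 0.00633) and none fell. Over all genes 1.61% were called higher and 1.83% lower there. With the block 5 of 23 rose, namely Panx2 (1.68), the ectonucleotidase genes Entpd3 (0.49), Entpd6 (0.45) and Enpp4 (0.496) and the volume-regulated channel gene Lrrc8a (0.62), and Enpp5 fell (-0.39). In that fit 21.9% of all genes were called (11.7% higher, 10.3% lower). With basal shNup153-2, where 5.91% of all genes were called higher, 3 of 23 rose. They were Panx2 (2.81), the phosphatase gene Alpl (1.56) and Enpp4 (0.90). With shNup153-1, 6.52% of all genes were called higher and 7.05% lower. Of 24, 4 rose, namely Panx2 (2.83), Alpl (2.29), Lrrc8a (1.34) and the adenosine kinase gene Adk (0.71), while Enpp4 fell (-1.38). Enpp6 was called higher too, with 2 to 8 counts in basal shControl and 123 and 215 in shNup153-1 libraries, but reached the filter through the latter alone (adjusted p without a filter 0.00151 in edgeR). It is also an oligodendrocyte gene, and over 10 markers of that lineage the shNup153-1 libraries held 787 CPM each against 115 to 286 in basal shControl, of which the part was not tested. Between states in control cultures 6.09% of all genes were called higher and 6.27% lower. Panx2 rose there (1.01) and 4 of 24 fell: Nt5e, which makes adenosine from AMP (-1.13), Ada (-1.83), Enpp1 (-1.25) and Enpp4 (-0.68).

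**Figure D5:**
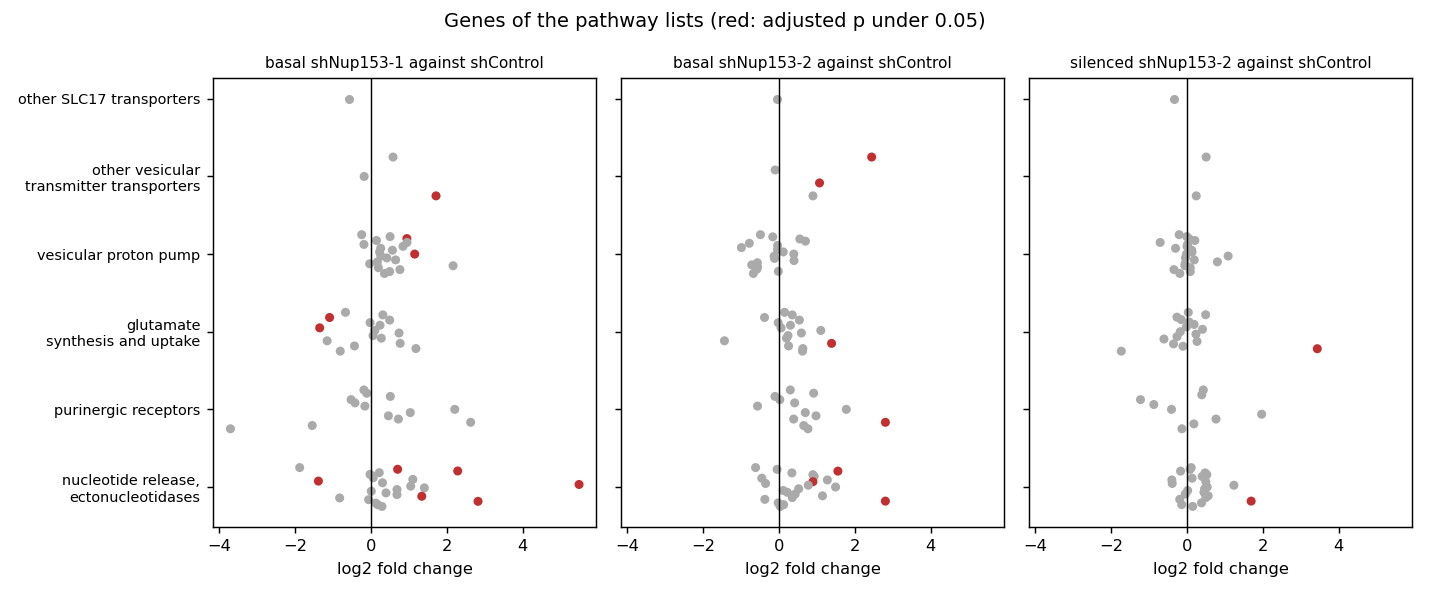
Log2 fold changes against shControl for the genes of 6 lists around the transporters, one point per gene tested, with basal shNup153-1, basal shNup153-2 and silenced shNup153-2 from left to right on a common axis. Red points have an edgeR BH-adjusted p under 0.05. In the silenced panel these are Panx2 (1.70) and Slc38a5 (3.44). Slc38a5 reached the filter through the shNup153-2 libraries alone, so it had to be higher to be tested.

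Markers of cortical excitatory neurons, the cells that hold most VGLUT1, were set beside the transporters. They summed to 2017 to 2424 CPM in basal shControl, 2322 and 2751 in basal shNup153-2 libraries, and 1961 and 2782 in those of shNup153-1. Under silencing they summed to 2572 to 3665 CPM with shControl and 2657 to 4821 with shNup153-2. None of 16 was called in silenced cultures by edgeR (4 at an unadjusted p under 0.05, none by DESeq2), and with the block 3 rose: Nrgn (1.44), a postsynaptic calmodulin-binding protein gene, Nptx1 (0.896), a synaptic pentraxin gene, and Cux2 (0.49). The transcription factor genes Bhlhe22 (-0.448), Emx1 (-0.446), Cux1 (-0.37) and Tbr1 (-0.33) fell with it. The blocked fit called 21.9% of all genes (11.7% higher, 10.3% lower). With basal shNup153-2, 2 rose, Nrgn (1.98) and the upper-layer factor gene Cux2 (1.80), and Bhlhe22 fell (-1.82). Over all genes 5.91% were called higher and 3.64% lower there. With shNup153-1, Nrgn (2.05) and Cux2 (1.11) rose, and Bhlhe22 (-1.43) and the deep-layer factor gene Tbr1 (-1.20) fell. Over all genes 6.52% were called higher and 7.05% lower there. GABAergic markers, over 14 genes, summed to 1180 to 1906 CPM in basal shControl, 2570 and 2270 in basal shNup153-2 libraries, 3215 and 2580 in those of shNup153-1, and 872 to 982 in silenced shControl. Of 15, 9 fell between states in control cultures, where 6.27% of all genes were called lower and Slc17a6 fell too. State and table cannot be told apart there, and the part of these markers in the level of Slc17a6 was not tested.

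Genes whose log2 levels ran most like those of each member over the 14 libraries were taken from 12240 genes. The libraries share group and state, so these correlations are descriptions. Slc17a6 was most like Yod1, a deubiquitinase gene (Pearson r 0.96), Ppp4r3b (0.96) and Slc36a4 (0.95). Yod1 averaged 37.5 CPM in basal shControl, 15.4 in basal shNup153-2, 28.7 in silenced shControl and 13.0 in silenced shNup153-2. Slc17a7 was most like Zfp12 (0.89), Irf8 (0.88) and Rasgef1a (0.86), and Slc17a8 most like Aldh1b1 (0.94), the proline transporter gene Slc6a7 (0.93) and Klhdc8a (0.91). Slc17a9 was most like Noxred1 (0.96), Nipa2 (0.95) and Hypk (0.94). Noxred1 averaged 5.60 CPM in basal shControl and 1.18 in basal shNup153-2, against 5.27 and 2.20 under silencing. Among the members, Slc17a6 and Slc17a9 ran together (r 0.71) and Slc17a6 and Slc17a7 apart (r -0.53).

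The neighbours of the members on the chromosome were read to see whether a locus moved as a whole. Around Slc17a9, Dido1, Gid8, Bhlhe23 and Ythdf1 were not called in any comparison in which they were tested, with Gid8, 6530 bases away, at -0.66 with basal shNup153-2 (BH-adjusted p = 0.0697). Around Slc17a6, Ano5, a gene of the anoctamin family 23297 bases before it, rose with basal shNup153-2 (2.26, SE 0.54, edgeR BH-adjusted p = 0.0385), opposite to the direction of Slc17a6. In shNup153-2 cultures Ano5 (-3.30) and Gas2 (-0.89) fell from basal to silenced state. Fancf was not called, and neither were the neighbours of Slc17a7 (Aldh16a1, Pih1d1 and Gfy) nor those of Slc17a8 (Gas2l3, Scyl2 and Actr6) where they were tested. Gfy, 207 bases beyond Slc17a7 on the other strand, had a log2 fold change of -2.11 in silenced cultures (SE 0.63, edgeR BH-adjusted p = 0.125).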

How the data were processed

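Poly(A) RNA of 14 libraries in 5 groups was analysed. The deposited tables hold raw read counts per gene symbol, not normalized, counted with featureCounts 2.0.1 on mm10 after FastQC, per the submitters' processing notes. The aligner, the annotation and the strand setting were not given in the sources used here. Groups were taken from the titles of the labels, since the descriptions name the control virus for every sample. Of the basal columns, 2 that carry 1 name were left out, and shNup153-1 values were used up to line 16399 of the basal table, beyond which its columns are out of register.

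The tests used edgeR 4.0.16 (R 4.3.3): filterByExpr with a minimum count of 10, TMM factors, library totals over all lines, the quasi-likelihood F test and BH adjustment over all genes tested at 0.05. The silenced groups and basal shNup153-2 with shControl were each fitted alone, shNup153-1 with all 3 basal groups, and comparisons of states in a joint fit of 12 libraries. CPM use totals scaled by TMM factors, and levels per kilobase use the union of GENCODE M21 exons. Totals of 26863535 to 56299817 counts set the precision, least for Slc17a8 and Slc17a9. PCR reads without molecular identifiers are not independent molecules.

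Members and gene lists were chosen with earlier results of these data known. Named besides the members were Nup153, up to 4 genes per list with the smallest p in silenced cultures, counts of 5 or fewer in full, the 3 most alike genes with a mean of at least 1 CPM (log2 CPM, prior count 2) and the 2 nearest protein-coding genes on each side. Residual log2 CPM of silenced libraries with the same number correlated at 0.29, 0.57 and 0.62 across genes, so the numbers were taken to pair them, although no label ties a number to a litter. Alternatives were RLE factors, DESeq2 1.42.0, no filter, the replicate block, leaving out each library and other sets of libraries. The edgeR step was tested on simulated data.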

Additional observations from a re-analysis of the deposited data

How the results depend on the processing

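For the 4 transcripts, changing factors, filter, tool or the libraries fitted kept every direction of each log2 fold change, and so did leaving out single libraries, except for Slc17a7 between states in shControl (-0.45 to 0.18) and Slc17a8 with shNup153-1 (-0.16 to 0.33), neither of them called. With the replicate number as a block, Slc17a7 (0.76, edgeR BH-adjusted p = 0.00167) and Slc17a8 (1.199, 0.042) passed in silenced cultures, and no other call of a member changed. An alternative chosen after seeing the data, the block with no filter, put Slc17a7 at 0.743, Slc17a8 at 1.186 (edgeR BH-adjusted p = 0.00171) and Slc17a9 at -1.074 (0.0166) and called 5493 genes. In that fit the prior degrees of freedom were infinite, so each gene was given the common spread, and its p-values are not read. Leaving out single libraries moved Slc17a6 in silenced cultures over -1.496 to -1.31 (edgeR BH-adjusted p 0.0167 to 0.0733), and with shNup153-1 Slc17a7 over -0.94 to -0.29 and Slc17a9 over -3.21 to -2.51. With the longest transcript in place of all exons, the ratio of Slc17a7 to Slc17a6 was 6.46 in place of 4.81 in basal shControl, 8.12 in place of 6.06 with shNup153-1 and 48.3 in place of 36.0 with basal shNup153-2.

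Counts of called genes moved far more. DESeq2 called 1612 genes in silenced cultures in place of 654, 3513 with basal shNup153-2 in place of 1880 and 3093 with shNup153-1 in place of 1971. The block gave 4161 in silenced cultures. For shNup153-1 the block gave 0 in place of 1971 (2296 at an unadjusted p under 0.05). As in silenced cultures, no label ties these numbers to a litter. Whether basal libraries of the same number varied together was not checked. Without the block, shNup153-1 gave 7997 over all lines as deposited and 1203 with both groups alone. Fits of 1 hairpin's libraries gave 1255 in place of 2586 between states in shControl and 7714 in place of 4545 in shNup153-2. Leaving out single libraries gave 4 to 659 in silenced cultures, 1069 to 3426 and 841 to 4003 between states, 15 to 2211 with basal shNup153-2 and 356 to 2050 with shNup153-1. Where an arm kept 1 library, it was assumed to vary like the other groups. Counts of 4 to 90 per library limit Slc17a9 and Slc17a8.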
